A study of Mus musculus with 12 samples.

Results

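The 7 genes of the Fos and Jun family were followed in a pair of murine pancreatic lines linked by conditioned medium. They are Fos (ENSMUSG00000021250), Fosb (ENSMUSG00000003545), Fosl1 (ENSMUSG00000024912), Fosl2 (ENSMUSG00000029135), Jun (ENSMUSG00000052684), Junb (ENSMUSG00000052837) and Jund (ENSMUSG00000071076). They were chosen by family name and were found among 16386 genes in the stellate cell count table and 15309 in the tumour cell table. All 7 passed the filter on low counts in both lines. In the first step, KPC4 tumour cells received vehicle or 10 µM gemcitabine, a nucleoside analogue used against pancreatic cancer, for 6 h. After a wash they conditioned starvation medium for 14 h, and PSC4 pancreatic stellate cells were kept in that medium for 24 h (Control-SU after vehicle, Gem-SU after the drug). In the second step, PSC4 cells spent 6 h in one or the other of these media. After a wash they conditioned fresh starvation medium for 18 h, and KPC4 cells then spent 24 h in it (Control-PSC-SU or Gem-PSC-SU). RNA was sequenced from the recipient cells, with 3 biological replicates in each of the 4 groups, 12 libraries in all. All groups, controls included, received conditioned starvation medium, and each cell type was represented by a single line.

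AP-1 is a dimer of basic leucine zipper proteins. Jun, Junb and Jund pair with each other or with Fos, Fosb, Fosl1 (Fra-1) and Fosl2 (Fra-2), whereas Fos proteins need a Jun partner to bind DNA well. The dimers bind the TRE, TGACTCA, and more weakly the CRE, TGACGTCA. Fos, Fosb, Jun and Junb are immediate early genes: growth factors, cytokines and stress kinases switch them on without new protein synthesis, and their transcripts are short lived. Fosl1 and Fosl2 usually follow later and last longer, and Jund is made steadily in many resting cells.

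The upstream sequence of the members is shown first because most of them moved together in the stellate cells. Promoter windows of RefSeq (build GRCm38.p6, 250 bases before to 50 bases after the annotated start) were matched for 6 of 7 members; Fosl1 was not matched. The 120 bases before the start are printed 5′ to 3′ on the gene's strand. Capitals mark TGACG (the first letters of the CRE), the TATA box TATAAA, the box CCAAT known from many promoters, and TGACATCA. The last of these, a TRE-like site known from the Jun promoter, was added after the sequence had been seen.
Fos (chr12:85473770-85473889, + strand): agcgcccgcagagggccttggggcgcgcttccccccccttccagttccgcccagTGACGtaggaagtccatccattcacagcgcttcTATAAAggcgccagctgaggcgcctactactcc
Fosb (chr7:19310046-19310165, - strand): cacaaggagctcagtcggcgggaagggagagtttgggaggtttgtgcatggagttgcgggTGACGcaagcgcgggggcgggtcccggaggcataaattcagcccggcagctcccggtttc
Junb (chr8:84978749-84978868, - strand): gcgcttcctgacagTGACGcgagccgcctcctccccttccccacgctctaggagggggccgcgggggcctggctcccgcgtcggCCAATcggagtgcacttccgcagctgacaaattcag
Jun (chr4:95052223-95052342, - strand): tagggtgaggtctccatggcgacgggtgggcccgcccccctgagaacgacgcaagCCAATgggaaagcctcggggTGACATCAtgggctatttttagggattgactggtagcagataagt
Fosl2 (chr5:32136352-32136471, + strand): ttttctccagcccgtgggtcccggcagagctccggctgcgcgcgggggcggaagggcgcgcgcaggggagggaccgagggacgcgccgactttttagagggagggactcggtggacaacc
TGACG began 66 and 129 bases before the start of Fos, 60 before Fosb and 106 before Junb. It was present, on either strand, in 20.8% of all 32851 windows. TATAAA began 33 bases before the start of Fos and at the annotated start of Junb, and was present in 13.6% of windows. CCAAT lay 65 bases before Jun and 36 before Junb (37.4% of windows), and TGACATCA lay 45 bases before Jun (3.62%). The Fosl2 stretch held none of the capitalised motifs, but it held GGGCGG 75 bases before the start, a motif found in 35.7% of windows and in those of Jun, Fosl2, Fosb and Fos. The Jund window, not printed, held none of the motifs searched, GGGCGG included, so their absence does not set Fosl2 apart. The full CRE (1.79% of windows), the TRE (5.2%), its variant TGANTCA (7.81%) and the CArG box (1.63%) were absent from all 6 members' windows as searched. TGACGTCA contains TGACG, and TGANTCA contains TGACTCA, so these counts overlap. Sites more than 250 bases before the start lay outside the windows, so absence here does not extend to them. These matches describe letters only.

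Libraries held 26354328 to 38138356 counts. Levels are given as CPM, counts relative to library size, scaled with edgeR's trimmed mean of M values over the 12 libraries. The defining markers matched the labelled lines: 10 epithelial markers summed to 5899 to 7577 CPM in KPC4 and to 3.57 to 14.4 CPM in PSC4, where Epcam and Cdh1 were not in the table. The 10 stellate and fibroblast markers summed to 26.6 to 45.3 CPM in KPC4. In PSC4 that sum went from 6241 to 7733 CPM in Control-SU to 1932 to 2954 CPM in Gem-SU, with 8 of 9 tested markers called lower, so it moved with the members below. The epithelial sum in PSC4 was 3.57 to 6.11 CPM in Control-SU and 9.93 to 14.4 CPM in Gem-SU, with 1 of 3 tested markers, Krt19, called higher. Leukocyte and endothelial markers summed to at most 5.85 CPM in any library. In PSC4 Gem-SU, 1 of 3 tested endothelial and 0 of 2 tested leukocyte markers were called higher. Over all genes tested in PSC4, 24.3% were called higher and 22% lower, so a call of 1 in 3 is no result about a marker list. The part of these marker shifts in the results was not tested, and in such bulk RNA fewer cells of a type and less RNA per cell cannot be told apart.

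PSC4 cells in Gem-SU had far more RNA of 6 members and less of Fosl2 than PSC4 cells in Control-SU. The largest differences were in Fos and Fosb, followed by Fosl1, Junb and Jun, and Jund rose least. Fosl2, per exon length the most abundant Fos gene in the control stellate cells, fell. All 7 members passed an adjusted p of 0.05 in edgeR's quasi-likelihood test, 6 higher and 1 lower, against 24.3% of 13347 tested genes called higher and 22% called lower.

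Among the Fos genes, Fos, the classical early partner of Jun, was at 4.30, 4.43 and 2.52 CPM in the 3 Control-SU libraries and at 273, 215 and 241 CPM in Gem-SU. The lowest Gem-SU library was thus far above the highest control, and each Gem-SU library was 57.2 to 72.7 times the control mean. The log2 fold change of Fos was 6.06 (SE 0.27, edgeR adjusted p = 1.45e-05), and it ranked 37 of 13347 genes from the highest. Fosb, the close paralogue of Fos, was at 2.16, 1.73 and 2.56 CPM in controls and 122, 67.3 and 83.0 CPM in Gem-SU. The groups did not overlap, and the fitted log2 fold change was 5.45 (SE 0.29, edgeR adjusted p = 1.93e-05). Fosl1, which lacks the strong activation domain of Fos, was at 14.6, 11.1 and 9.61 CPM in controls and 160, 149 and 138 CPM in Gem-SU. Its log2 fold change was 3.71 (SE 0.19, edgeR adjusted p = 1.93e-05), again with no overlap between the groups.

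Fosl2 went the other way. It was at 361, 253 and 378 CPM in Control-SU and 137, 155 and 143 CPM in Gem-SU. All 3 Gem-SU libraries were below all 3 controls, a pattern seen in 28.9% of tested genes, and lay between 0.413 and 0.469 times the control mean. The log2 fold change was -1.14 (SE 0.18, edgeR adjusted p = 0.00138), and it ranked 1417 from the lowest.

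All 3 Jun genes rose. Jun, the main activating member, was at 125, 116 and 85.6 CPM in controls and 904, 821 and 789 CPM in Gem-SU, with a log2 fold change of 2.99 (SE 0.20, edgeR adjusted p = 4.04e-05). Junb was at 127, 90.6 and 102 CPM in controls and 1251, 1119 and 903 CPM in Gem-SU, with a log2 fold change of 3.40 (SE 0.22, edgeR adjusted p = 3.24e-05). Neither gene's groups overlapped. Jund was at 166, 61.0 and 104 CPM in controls and 389, 263 and 220 CPM in Gem-SU. Its control libraries differed most among themselves (coefficient of variation 47.8%), yet the lowest Gem-SU library was above the highest control. The log2 fold change of Jund was 1.45 (SE 0.36, edgeR adjusted p = 0.0106). For all 6 of the higher members every Gem-SU library was above every control, as for 27.8% of tested genes. Opposite-strand genes overlap Fosl1 (Ccdc85b), Jun (Junos) and Jund (Gm11175) in GENCODE M21, and the use of strand in counting is not given in the sources used here, so the values of these 3 members could include reads of the overlapping gene.

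**Figure D1:**
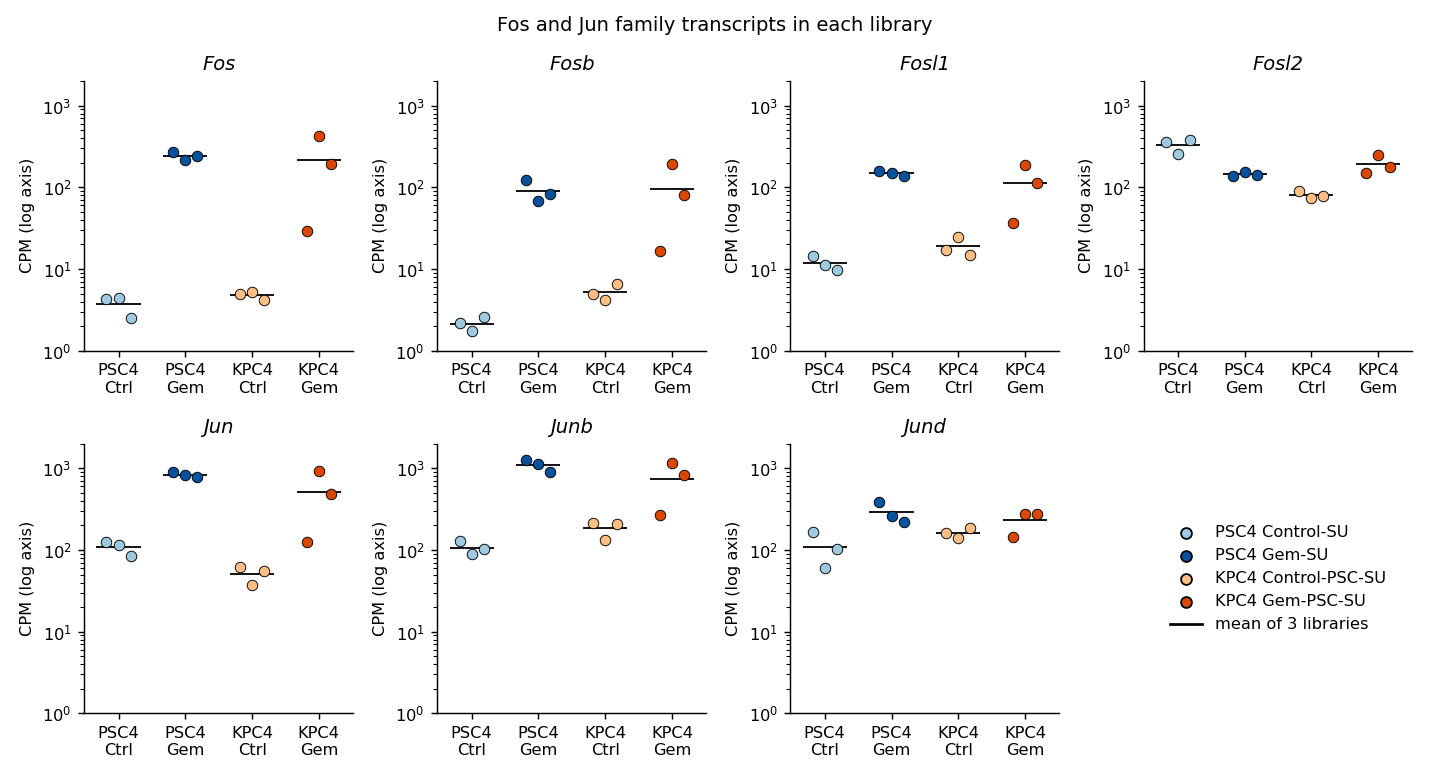
CPM (log axis) of each member in the 12 libraries; each point is a library, each line the mean of 3. The PSC4 Gem-SU points stand above the Control-SU points in every panel but Fosl2, where they stand below, and the KPC4 Gem-PSC-SU points are spread from 29.6 to 429 CPM for Fos.

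In KPC4 cells, the medium of stellate cells that had been given Gem-SU went with higher values of the same early members, but with a wide spread between the 3 treated libraries. In 6 of 7 members every Gem-PSC-SU library was above every control library, against 12.2% of tested genes, and Jund overlapped. Fosl2, lower in the stellate cells, was among those above. No member passed edgeR's test on the KPC4 libraries without pairing, in which 0 of 13236 genes were called (0%). At an unadjusted p under 0.05 that test held 2251 genes (17%), 10.9% of genes on the higher side. The other tools and fits called more. DESeq2 called 6 members, all higher, among 806 genes called in either direction, of 15309. In a fit over all 12 libraries edgeR called 6 members, all higher, among 610 genes called in either direction, of 13632. Jund was the exception in both. Same-numbered KPC4 libraries deviated together, and in a fit blocked on that number Fosl1 and Fosl2 passed, beside 6.07% of genes called higher and 2.78% lower.

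Fos was at 5.01, 5.23 and 4.22 CPM in Control-PSC-SU and at 29.6, 429 and 192 CPM in Gem-PSC-SU. The lowest treated library was 6.14 times the control mean and the highest 89.0 times. The log2 fold change of Fos was 5.50 (SE 0.86, edgeR adjusted p = 0.112), and 4.88 (SE 1.13, adjusted p = 0.109) with the block. It ranked 15 of 13236 genes from the highest. Fosb was at 4.89, 4.14 and 6.64 CPM in controls and 16.7, 191 and 79.7 CPM in the treated cells, with a log2 fold change of 4.21 (SE 0.77, edgeR adjusted p = 0.112; 0.131 with the block).

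Fosl1 was at 17.3, 24.8 and 14.9 CPM in Control-PSC-SU and 36.6, 190 and 114 CPM in Gem-PSC-SU. The groups did not overlap. Its log2 fold change was 2.59 (SE 0.53, edgeR adjusted p = 0.115), and with the block Fosl1 rose by 2.33 (SE 0.44, adjusted p = 0.0413). Fosl2 was at 91.2, 74.0 and 78.5 CPM in controls and at 150, 246 and 180 CPM in the treated cells. The treated Fosl2 libraries were 1.84 to 3.03 times the control mean, the narrowest range of the 6 members that did not overlap. The log2 fold change of Fosl2 was 1.24 (SE 0.23, edgeR adjusted p = 0.112), and with the block it rose by 1.21 (SE 0.21, adjusted p = 0.0165).

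Jun was at 61.3, 37.0 and 55.2 CPM in controls and at 124, 935 and 489 CPM in Gem-PSC-SU, for a log2 fold change of 3.34 (SE 0.63, edgeR adjusted p = 0.112; 0.183 with the block). Junb was at 213, 131 and 208 CPM in controls and at 268, 1152 and 829 CPM in the treated cells, for a log2 fold change of 2.03 (SE 0.47, edgeR adjusted p = 0.124; 0.210 with the block). The lowest treated library was 2.43 times the control mean for Jun and 1.46 times for Junb. Jund was at 162, 141 and 188 CPM in controls and at 146, 275 and 276 CPM in Gem-PSC-SU. Treated replicate 1 of Jund lay within the control range, and the log2 fold change was 0.51 (SE 0.27, edgeR adjusted p = 0.369; 0.207 with the block).

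Replicate 1 was the lowest Gem-PSC-SU library for all 7 members, and replicate 2 was the highest for 6 of them, with replicate 3 between; 25.4% of all tested genes had that same arrangement. Without replicate 1, all 7 members passed edgeR's test as higher, with log2 fold changes from 0.76 for Jund (adjusted p = 0.0415) to 6.02 for Fos (adjusted p = 3.42e-04). In that setting 6.31% of genes were called higher and 1.99% lower. Leaving out any other single KPC4 library called none of the members.

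**Figure D2:**
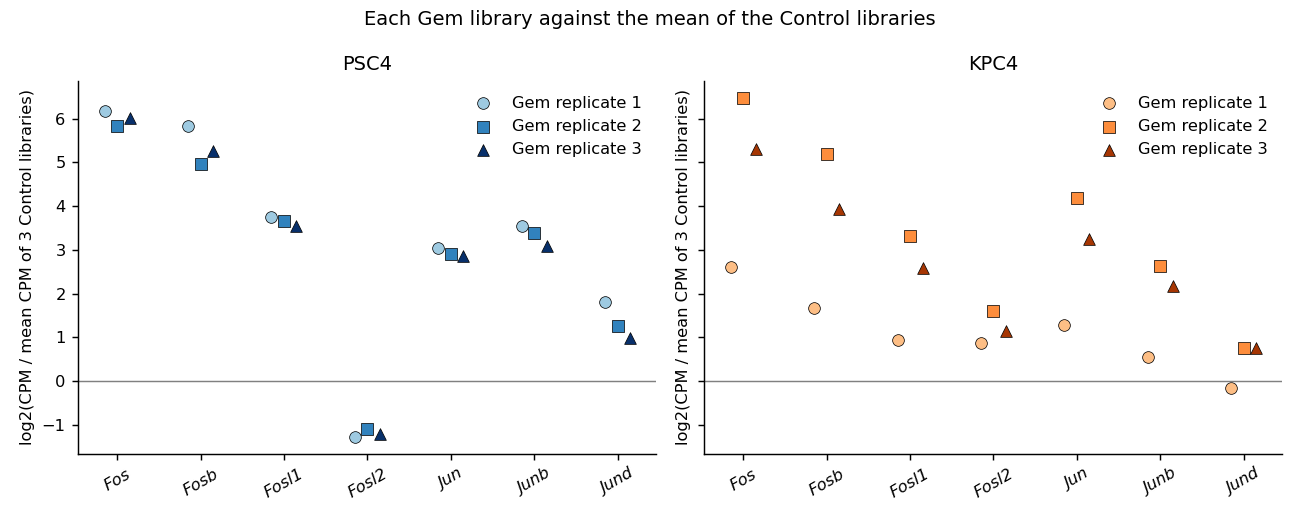
Log2 of the CPM of each Gem library over the mean CPM of the 3 control libraries of its line, by member. The PSC4 libraries lie close together, whereas in the KPC4 panel Gem-PSC-SU replicate 1 (circles) is the lowest of the 3 treated libraries in every member, from -0.17 for Jund to 2.62 for Fos.

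The responses of the lines were compared in a model over all 12 libraries, in which line, medium and step of the transfer cannot be told apart. Fosl2 was the member whose response differed: it fell in PSC4 and not in KPC4, and the difference, PSC4 minus KPC4, was -2.43 on the log2 scale (SE 0.30, edgeR adjusted p = 6.31e-04). Of 13632 genes, 5.1% had a difference called lower and 4.75% higher. The Fosl2 call held in each of 18 alternatives, with differences from -2.60 to -2.21. With the block, 30 of 12207 genes (0.246%) were called lower in PSC4 and higher in KPC4, and Fosl2 was one of them.

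For the other 6 members the difference did not pass. It was 1.33 (SE 0.55) for Junb, 1.20 (SE 0.83) for Fosb, 1.08 (SE 0.59) for Fosl1 and 0.89 (SE 0.48) for Jund, with edgeR adjusted p from 0.143 to 0.389. It was 0.53 (SE 0.86, edgeR adjusted p = 0.743) for Fos and -0.39 (SE 0.67, adjusted p = 0.753) for Jun. These errors leave room for sizeable differences. Without KPC4 Gem-PSC-SU replicate 2, the differences of Fosb (2.19), Fosl1 (1.68) and Junb (1.78) also passed and that of Jun was 0.36; without Gem-PSC-SU replicate 1 that of Fos was -0.014.

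**Figure D3:**
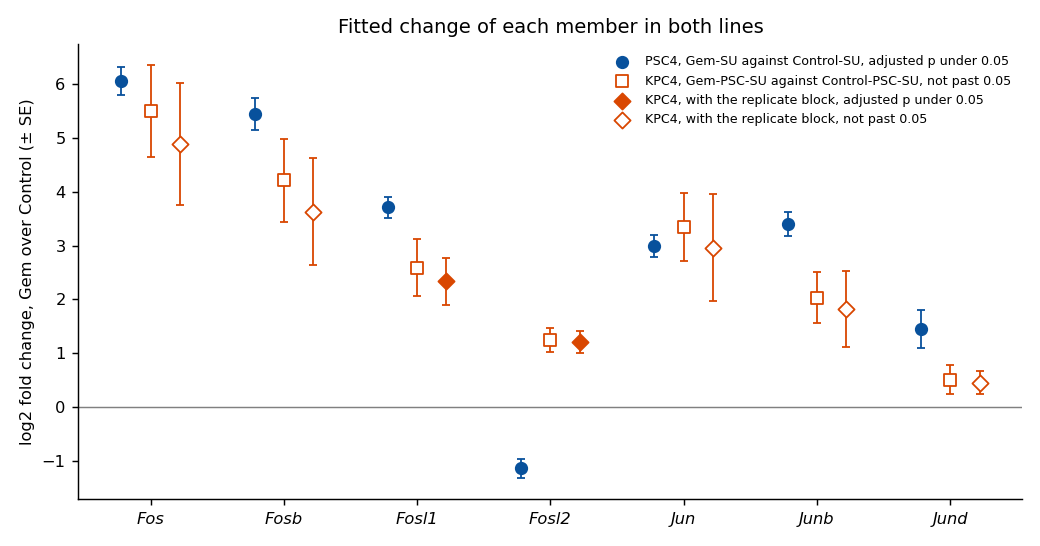
Fitted log2 fold change (Gem over Control) ± SE of each member in PSC4 (circles), in KPC4 (squares) and in KPC4 with the replicate block (diamonds); filled symbols passed an adjusted p of 0.05. Fosl2 is the member on opposite sides of 0, at -1.14 in PSC4 and 1.24 in KPC4.

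In the control media the lines differed in Fosl2: the 3 PSC4 libraries (253 to 378 CPM) were all above the KPC4 libraries (74.0 to 91.2 CPM), a log2 difference of 2.03 (SE 0.21, edgeR adjusted p = 3.88e-06). Between the controls 22.3% of genes were called higher in PSC4 and 20.6% lower. The other members did not pass, although the control libraries of Jun, Fosb, Fosl1 and Junb did not overlap between the lines either. Those of Fos and Jund overlapped. For Fosl1 the gap was narrow, from 14.6 CPM in the highest PSC4 control to 14.9 CPM in the lowest KPC4 control. The share of all genes with such a separation was not counted, so the separation is no result about these members. The PSC4 minus KPC4 log2 values were 1.09 for Jun, -0.36 for Fos, -0.57 for Jund, -0.69 for Fosl1, -0.79 for Junb and -1.28 for Fosb, with edgeR adjusted p from 0.0841 for Jun to 0.680 for Fos. These calls rest on the spread shared by all 4 groups: without KPC4 Gem-PSC-SU replicate 1, Jun (1.12), Fosb (-1.24), Junb (-0.75) and Fosl1 (-0.65) passed as well. Without its replicate 2, Jun (1.09) and Fosb (-1.28) passed as well, and without PSC4 Control-SU replicate 1 Jund (-0.98) did. The Fosl2 level ran from PSC4 Control-SU (331 CPM) through KPC4 Gem-PSC-SU (192) and PSC4 Gem-SU (145) to KPC4 Control-PSC-SU (81.2), and only the middle pair of groups overlapped. For Fos, Fosb, Fosl1, Jun, Junb and Jund the Gem groups of both lines held the highest means and overlapped each other.

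Levels of different genes were compared as CPM per kilobase of exon (GENCODE M21). In the PSC4 controls Jund (66.2 ± 31.6, SD, n = 3), Junb (59.0 ± 10.3) and Fosl2 (50.6 ± 10.4) led, and neighbours in this order overlapped. In Gem-SU, Junb led at 603 ± 97.2 per kilobase, followed by Jun at 263 ± 18.6, Jund at 174 ± 52.8 and Fos at 115 ± 13.8, none of which overlapped the next. Fosl2 had the lowest mean at 22.2 ± 1.44, but its libraries overlapped those of Fosb (24.0 ± 7.42). The sum over the 7 members went from 219 ± 52.7 to 1281 ± 184 per kilobase in PSC4 and from 242 ± 39.6 to 934 ± 577 in KPC4 (SD, n = 3 each).

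Within that sum Fosl2 made up 23.4% ± 3.70 in the PSC4 controls and 1.76% ± 0.30 in Gem-SU, where Fos went from 0.848% to 9.06% and Junb from 27.3% to 47.0%. In KPC4, Fosl2 made up 5.19% ± 0.66 in controls and 4.05% ± 2.40 in Gem-PSC-SU, although its own level was higher in the latter. Jund, the largest share together with Junb in the KPC4 controls (40.7% and 41.6%), made up 18.0% ± 7.53 in Gem-PSC-SU, and Jun went from 6.56% to 15.7%.

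**Figure D4:**
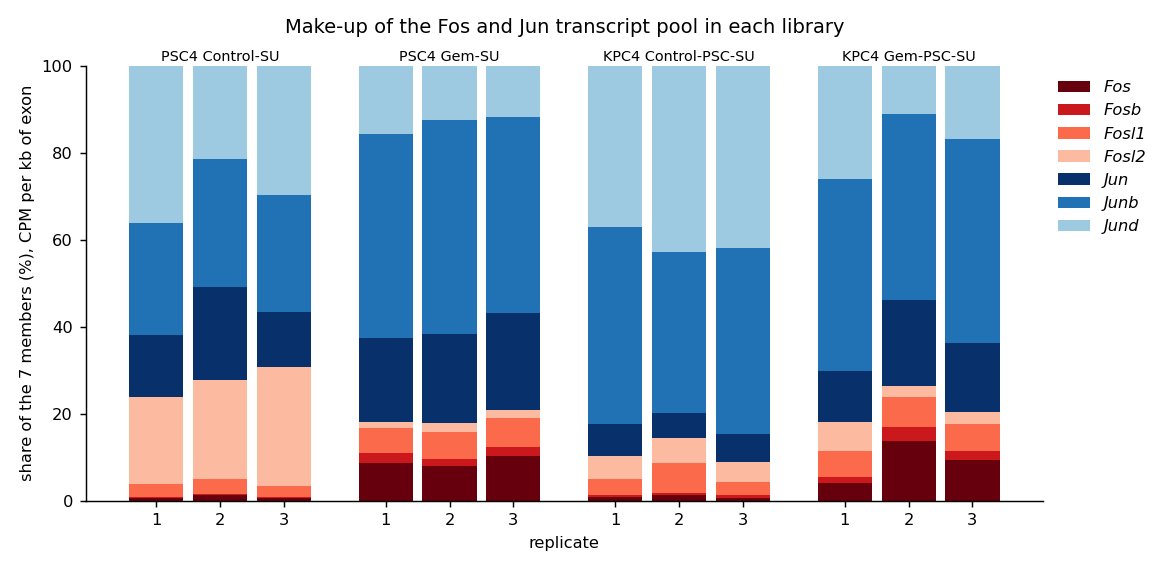
Share of each member in the summed CPM per kilobase of the 7 members, in percent, for each library (bars) by group. The Fosl2 segment takes 20.1% to 27.4% of the PSC4 Control-SU bars and at most 1.97% of the Gem-SU bars.

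Members other than Fosl2 varied together over the 12 libraries. With each line centred on its own mean, Pearson's r of log2 CPM between pairs of Fos, Fosb, Fosl1, Jun and Junb was 0.958 to 0.990, and with Jund 0.782 to 0.887. Fosl2 had r between -0.21 and 0.10 with the other members. Both lines enter this r, and the Fosl2 log2 fold change was -1.14 in PSC4 and 1.24 in KPC4. A low r over both lines therefore does not show that Fosl2 was unrelated to the other members within a line. All of these r values hold the contrast of Gem and control libraries, and are a description over samples that share libraries and depth. Among 11477 genes, the most alike genes were Slc25a25 (r = 0.995), Oser1 and Egr1 for Fos; Oser1 (0.990), Trit1 and Plk3 for Fosb; and Slc25a25 (0.994), Plk3 and Gdf15 for Fosl1. They were Phlda1 (0.991), Oser1 and Ppp1r15a for Jun, Gadd45b (0.991), Rcan1 and Safb2 for Junb, and Fxr2 (0.982), Phc2 and Snx8 for Jund. Fosl2 had the lowest best values, with Sbno2 (0.938), Arid3a (0.934) and Tnfrsf1b (0.930).

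Other bZIP genes whose proteins can pair with Fos or Jun were also followed: of 11 tested of 13, 5 were called higher and 3 lower in PSC4, where 24.3% of all genes were called higher and 22% lower, with a median log2 fold change of 0.22 against -0.00 over all genes. Atf3, a stress-induced partner of Jun, was at 3.05 to 5.00 CPM in Control-SU and 877 to 1155 CPM in Gem-SU, a log2 fold change of 8.07 (SE 0.29, edgeR adjusted p = 1.45e-05). Mafk (2.35) and Atf4 (1.71) rose and Maf fell by 2.43. In KPC4 none of 10 tested was called without the block and 4 were called higher with it (6.07% of all genes): Atf3 (6.35), Mafk (1.32), Atf4 (1.11) and Jdp2 (0.82). Maff, also an early partner gene, was at 1.20 in KPC4 (edgeR adjusted p = 0.157) and did not pass with the block (0.0519). Maf was at 0.13 in KPC4, and the difference of its response between lines was called, -2.61 (edgeR adjusted p = 0.00198).

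Of 18 MAP kinase cascade genes tested of 19, which encode kinases that act upstream, 5 were called higher and 4 lower in PSC4, with a median of -0.29. These counts are near the shares of all genes called (24.3% higher, 22% lower) and are no result about the list. Map2k4 (1.19) and Map2k3 (1.09), which encode kinases of the JNK and p38 arms, and Mapk14 (0.76), which encodes p38 alpha, rose, and Mapk3, which encodes ERK1, fell by 1.83. In KPC4 Map2k3 was the 1 gene of 17 called with the block (0.76, edgeR adjusted p = 0.0340). With the block 6.07% of all genes were called higher and 2.78% lower, so this count is no result about the list either. The other KPC4 genes with the smallest p, Map2k2 (-0.39), Map2k5 (-0.43) and Map2k7 (-0.35), did not pass.

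Of 13 genes for factors that bind Fos and Jun promoters, 2 were called higher and 3 lower in PSC4 (median -0.11): Mef2a (1.00) and Mrtfa (0.70) rose, while Elk3 fell by 1.57, Stat3 by 1.23 and Mef2c by 0.65. Over all genes 24.3% were called higher and 22% lower, so these counts do not set the list apart. Srf, the factor of the serum response element, was at 0.71 and did not pass (edgeR adjusted p = 0.0589). In KPC4, with the block, Atf1 (0.54) was called higher and Mrtfb (-0.66) lower of 13, and Elk3 (-0.70) did not pass. Over all genes 6.07% were called higher and 2.78% lower with the block, so these counts do not set the list apart. Of 11 genes that act on the stability of Fos and Jun proteins or transcripts, 2 were called higher and 3 lower in PSC4, again near the shares over all genes (24.3% and 22%). Zfp36, which encodes an mRNA-destabilising protein, rose by 2.07, and Fbxw7, which encodes the substrate subunit of a Jun ubiquitin ligase, by 1.00. Zfp36l2 and Trib1 each fell by 1.36, and Trib2 fell by 1.65. In KPC4 with the block, 1 of 11 was called higher and 1 lower (6.07% and 2.78% of all genes). Zfp36 rose by 1.86 (edgeR adjusted p = 0.0199) and Gsk3b fell by 0.53.

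Of 14 textbook AP-1 targets, 9 were called higher and 2 lower in PSC4, where 24.3% of all genes were called higher and 22% lower. The median was 1.41 against -0.00 over all genes. Hbegf, which encodes an EGF receptor ligand, was at 10.8 to 15.1 CPM in Control-SU and 275 to 317 CPM in Gem-SU, a log2 fold change of 4.61 (SE 0.19, edgeR adjusted p = 1.45e-05). Plau (2.17) and Ezr (1.69), which encode urokinase and ezrin, rose too. The collagenase gene Mmp13 and the gelatinase gene Mmp9 were called lower. Both calls were lost on leaving out Control-SU replicate 1 or 2, or Gem-SU replicate 2 or 3, where 0 targets were called lower. In KPC4, 5 of 12 tested were called higher with the block, as were 6.07% of all genes: Mmp3 (1.76), Mmp13 (1.76), Hbegf (1.74), Plaur (1.30) and Ezr (0.95). None was called without the block (median 1.18).

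Mmp13 was the list gene with opposite directions in the lines at an unadjusted p under 0.05 in both, as Fosl2 was among the members. It was at 22.1, 21.9 and 20.2 CPM in PSC4 Control-SU and 16.2, 8.71 and 6.97 CPM in Gem-SU, and at 23.8, 35.7 and 33.9 CPM in KPC4 Control-PSC-SU and 60.9, 177 and 105 CPM in Gem-PSC-SU. Neither pair of groups overlapped. The PSC4 log2 fold change of -0.96 (SE 0.30, edgeR adjusted p = 0.0300) lost its call in 5 of 13 alternatives. In KPC4 it was 1.76 with the block (SE 0.21, edgeR adjusted p = 0.00351), and the difference between lines was -2.88 (SE 0.52, adjusted p = 0.00456).

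**Figure D5:**
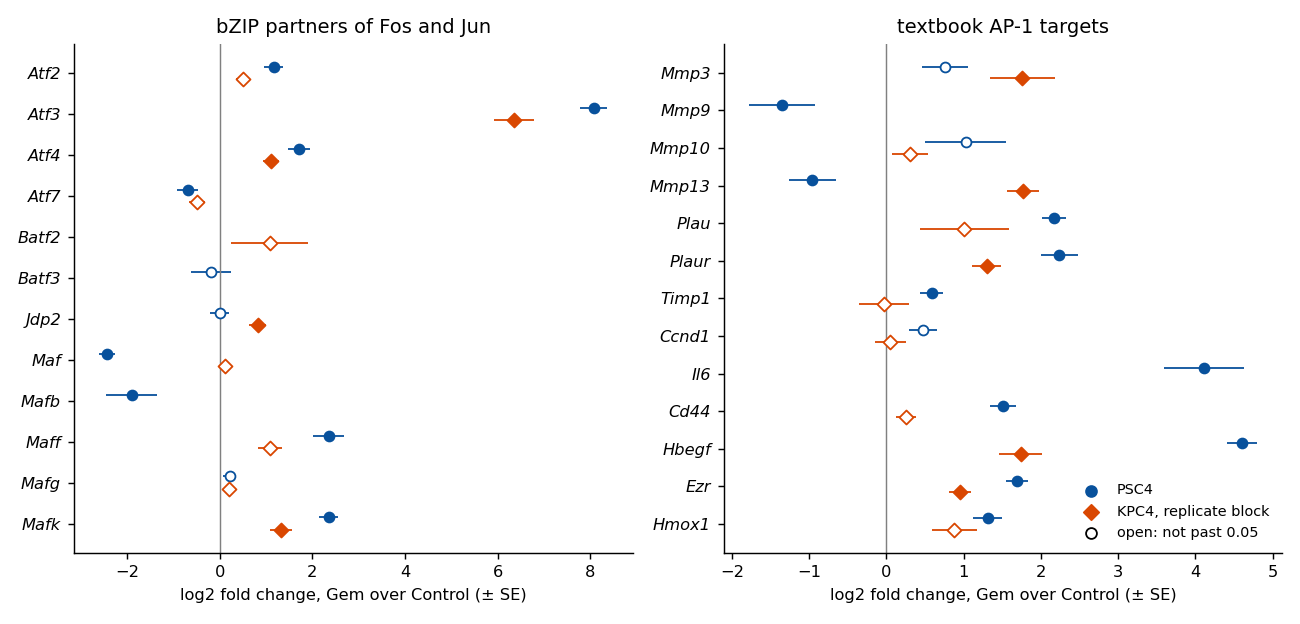
Log2 fold change (Gem over Control) ± SE of the tested bZIP partner genes and 13 of the 14 textbook AP-1 targets, in PSC4 (blue circles) and in KPC4 with the replicate block (orange diamonds); open symbols did not pass. Atf3 lies farthest to the right in both lines (8.07 and 6.35), and Mmp13 lies on opposite sides of 0.

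Immediate early genes outside the family were called higher in PSC4 in 12 of 12 cases (24.3% of all genes), with a median of 3.50; Arc (7.13), Egr2 (5.98), Egr1 (5.32) and Dusp1 (2.29) had the smallest p. In KPC4 the median of 11 tested was 2.86, and 4 were called higher with the block (6.07% of all genes): Egr2 (5.94), Dusp1, Egr3 (3.07) and Nr4a1 (1.68). Egr1 was at 5.61 without the block and 4.98 with it, and did not pass in either (edgeR adjusted p = 0.106 and 0.0921). Without KPC4 Gem-PSC-SU replicate 1, edgeR without the block called 8 of 11 immediate early genes, 8 of 13 targets and 5 of 10 bZIP partners higher, and 1 bZIP partner lower. Over all genes, 6.31% were called higher and 1.99% lower in that setting.

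In the authors' deposited table all 7 members were called in PSC4 and 6 of 7 in KPC4. The share of all genes called in it was not counted, so these counts stand without a background of their own. In the DESeq2 run made here, which is a different run, 6872 genes of 16386 were called in PSC4 and 806 of 15309 in KPC4. The authors' deposited table gave Fosl2 a negative log2 fold change in PSC4 (-1.15) and a positive one in KPC4, and the member not called was Jund in KPC4 (authors' deposited table, adjusted p = 0.413).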

How the data were processed

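Total RNA of PSC4 and KPC4 cells was sequenced (NovaSeq X Plus), as the labels' protocols state. The submitters' processing notes name Trim Galore 0.6.10, cutadapt 5.2, Salmon, DESeq2 and build GRCm39, with no roles; how Salmon's estimates became whole numbers is not given in the sources used here. Deposited count tables of raw counts per gene, 1 per line, were used, together with the authors' deposited log2 fold changes and adjusted p-values. Identifiers were matched to symbols for 99.7% in each table. Here edgeR 4.0.16 (R 4.3.3) was run per line: low-count filter, TMM scaling, robust quasi-likelihood test, Benjamini-Hochberg threshold 0.05; SE is the log2 fold change over the square root of F. The difference between lines was fitted over 12 libraries. Printed CPM was scaled over 12 libraries. Scripts were tested on simulated data. DESeq2 1.42.0, other scaling and filters, and leaving out each library were alternatives. The members, lists and tests were chosen with earlier results of these data known. All 7 members were named; of each list, up to 4 genes with the smallest p per line and any opposite in both lines; the others named beside a count (Mef2c, Trib2, Mmp9, Mmp3, Plaur, Jdp2, Nr4a1, Srf) were chosen after their values were seen. The values of 1 target gene are not reported here. Alike genes are the 3 with the highest r. The KPC4 libraries were treated as paired by number, a choice made from the values alone: same-numbered deviations correlated at 0.354, 0.438 and 0.215. Library depths (26354328 to 38138356 counts) make counting error small beside replicate spread for these genes, except for Fos and Fosb in the control libraries. They had 55 to 198 counts there, so counting error is part of their control spread. The replicates are labelled biological without saying how cultures were separated, so p-values measure the spread between these samples.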

Additional observations from a re-analysis of the deposited data

Results flagged for a closer look

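Fosl2 was singled out because its response differed between the lines under the same contrast, by a test of the difference itself. The log2 difference of response, PSC4 minus KPC4, was -2.43 (SE 0.30, edgeR adjusted p = 6.31e-04). All 3 PSC4 Gem-SU libraries were below all 3 PSC4 controls, and all 3 KPC4 Gem-PSC-SU libraries were above all 3 KPC4 controls. Line, medium and step of the transfer cannot be told apart in this contrast.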

How the results depend on the processing

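In PSC4, all 7 members kept their direction and their call under each of 13 alternatives (DESeq2, DESeq2 size factors, other filters, robust fitting off, the replicate block, a fit over 12 libraries, and leaving out each library), and the count of genes called ranged from 4061 (Gem-SU replicate 2 out) to 6826 on leaving out a library. PSC4 libraries showed no consistent pairing by number: r was 0.431, -0.06 and 0.0976 for same-numbered deviations. Replicate 1 correlated best with its own number, and replicates 2 and 3 did not. The replicate block called 7266 genes in PSC4 against 6177. In KPC4 every member kept its direction, but calls depended on the setting: 0 genes and 0 members without the block, 806 and 6 with DESeq2, 1171 and 2 with the replicate block, 610 and 6 in a fit over 12 libraries. Leaving out a KPC4 library gave 0 to 1129 genes and 0 to 7 members; the most genes were called with Gem-PSC-SU replicate 1 left out; 174 were called with the second control left out, and 1 with the second treated library left out. For the difference between lines, 1343 genes were called, 2163 with DESeq2, 2988 with the replicate block and 610 to 1993 on leaving out a library, with 1 to 4 members. On leaving out a library that of Fos ranged from -0.014 (KPC4 Gem-PSC-SU replicate 1 out) to 1.496 and that of Jun from -0.87 to 0.36 (replicate 2 of that group out), so both crossed 0, with no call. For the controls, the members called were 1, 2 with DESeq2 and 1 to 5 on leaving out a library, with 5842 genes called (4954 to 6272). No block could be fitted to the control contrast, since it lies between lines. The causes of these moves were not tested. Each group had 3 libraries, and the part of the spread between the treated KPC4 libraries in the unpaired KPC4 calls was not tested.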
